A study of Mus musculus with 8 samples.

Results

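The genes described here are 45 enzymes and carriers that break down amino acids and turn their nitrogen into urea in the liver. They were chosen by function, with earlier results of these data known, and matched by symbol among the 17810 genes listed by the authors. Of these, 1 gene, Mut, is listed there under its newer symbol Mmut. All 45 had enough counts to be tested, beside 12395 tested genes in all. RNA-Seq was compared between the livers of 4 WT and 4 HKO male littermates, 5 months old, which from the age of 8 weeks had eaten a high-fat diet lacking choline (CD-HFD) during 3 months. The authors state that mice were fasted for some hours at the end point. HKO mice carry floxed miR-33 alleles and Cre recombinase under the albumin promoter, which deletes miR-33 in hepatocytes. The authors leave open whether this Cre also affects miR-33 in cholangiocytes. Whether the WT mice carry the floxed alleles is not given in the sources used here. miR-33 itself was not analysed here, so each genotype was taken from its label.

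Hepatocytes are the main site of amino acid breakdown in the body. Transaminases move amino groups to glutamate, the carbon skeletons enter central metabolism through short chains of enzymes particular to each amino acid, and the nitrogen leaves as ammonia and aspartate, which the urea cycle joins into urea. The urea cycle begins in mitochondria and ends in the cytosol, and its genes are most active in hepatocytes around the portal vein. Glucagon, glucocorticoids and dietary protein raise many of these enzymes. The branched-chain amino acids differ from most others in being broken down largely outside the liver. miR-33 lies in an intron of Srebf2 and lowers the level of transcripts that pair with its seed.

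The totals per liver were 12174356 to 18735803 counts, so that 3 counts, the floor of detection, corresponded to 0.149 to 0.255 CPM (counts scaled to a common library size by TMM; the floor covers counting error only). Sdsl was the lowest of the 45 genes, at 1.79 to 2.79 CPM, and was above this floor in every liver. Levels varied little between livers of a genotype: the median coefficient of variation was 10.3% in WT and 9.98% in HKO livers for the 45 genes, against 12.7% and 13.4% for all tested genes. The column names end in S numbers, whose meaning is not given in the sources used here; these do not overlap between the genotypes, so whatever they stand for and the genotype cannot be told apart. In whole liver, fewer cells of a type and less RNA per cell cannot be told apart either. The 6 hepatocyte markers, led by albumin, summed to 93396 to 130613 CPM in WT and 81134 to 136696 CPM in HKO livers, ranges that overlap.

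The mature sequence of miR-33 and its matches in the 3'UTRs of these genes are shown because the transcripts that pair with the seed are those that the deletion could touch directly. The seed, bases 2 to 8 from the 5' end, is in capitals in the RefSeq sequence (GRCm38, chr15:82198127-82198147, plus strand):
mmu-miR-33-5p: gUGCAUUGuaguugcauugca
A match was counted where a 3'UTR held CAATGCA, the complement of the seed, or AATGCAA, the complement of bases 2 to 7 followed by an A. In the longest annotated 3'UTR, 8 of the 45 genes (17.8%) held a match, beside 1872 of 11631 tested genes with an annotated 3'UTR (16.1%). The median 3'UTR was 653 bases in the 45 genes and 1199 bases in all. The genes with a match were Asl, Slc25a13, Kmo, Kynu, Hal, Ftcd, Gpt2 and Acadsb. Asl and Acadsb had the full match of 8 bases, and Kynu was the only gene of the 8 that passed the edgeR test between genotypes described below. That test called 7 of the 45 genes and 5.03% of all tested genes. DESeq2, tried as an alternative, called Asl, Acadsb and Kynu, beside 14 of the 45 genes and 8.18% of all tested genes. These 3 sites are printed 5' to 3' on the transcript strand, 30 bases each with the match in capitals:
Asl, chr5:130011376-130011405, minus strand: aaaacgaatgcCAATGCAAagagagacagg
Acadsb, chr7:131445624-131445653, plus strand: attaatttccaCAATGCAAatcatagttaa
Kynu, chr2:43636628-43636657, plus strand: acctcaactcaAATGCAAaaatctaaaggc
The Asl site is in 1 of its 4 coding transcripts, and those of Acadsb and Kynu are each in 1 of 3, so the files do not show whether the liver transcripts hold them. The Kynu site also lies well before the listed end of the gene, at 43683049. The median log2 fold change was 0.22 for the 8 genes with a match and 0.20 for the 37 without one.

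Genes of amino acid breakdown were higher in HKO livers more often than lower. Of the 45 genes, 33 had a higher and 12 a lower estimate in HKO livers, with a median log2 fold change of 0.20, beside 0.01 for all tested genes. In edgeR (quasi-likelihood, p-values adjusted by Benjamini-Hochberg over all tested genes), 7 of the 45 (15.6%) rose at an adjusted p under 0.05: Cps1, Ass1 and Slc25a15 of the urea cycle, Tat and Hpd of tyrosine breakdown, Kynu of tryptophan breakdown and the transaminase Agxt. Among all tested genes, 5.03% passed, 1.66% as higher and 3.37% as lower. None of the 45 genes fell by this test, and 1 of them, Bckdhb, was lower at an unadjusted p under 0.05. At that unadjusted threshold 25 of the 45 passed and 24 of these were higher, beside 19.8% of all tested genes in either direction and 9.08% as higher. In 12 of the 45 genes all HKO livers lay above all WT livers, and in none below, beside 12.5% of all tested genes without overlap and 5.34% without overlap and higher in HKO livers. Each of these 12 had a two-sided exact permutation p = 0.0286, unadjusted and the smallest that 4 livers against 4 allow, and with total count scaling 8 genes had it.

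These counts depended on the fit and on single livers. DESeq2 called 14 of the 45 genes, again all higher, beside 8.18% of all tested genes. Scaling by total counts instead of TMM left 6 called and 28 of 45 with a higher estimate. It moved the share of higher genes among all called genes from 33% to 16%, and the median log2 fold change of all tested genes from 0.009 to -0.08. With all livers 7 of the 45 genes were called, beside 624 of all tested genes. With WT replicate 1 left out the count was 1, beside 272 of all genes. Without WT replicate 2 it was 2 beside 212, and without HKO replicate 2 it was 4 beside 474. Without HKO replicate 3 the count was 11 beside 471, and without WT replicate 4 it was 12 beside 597. Cps1 was called in each of the 8 fits that left out a liver.

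**Figure D1:**
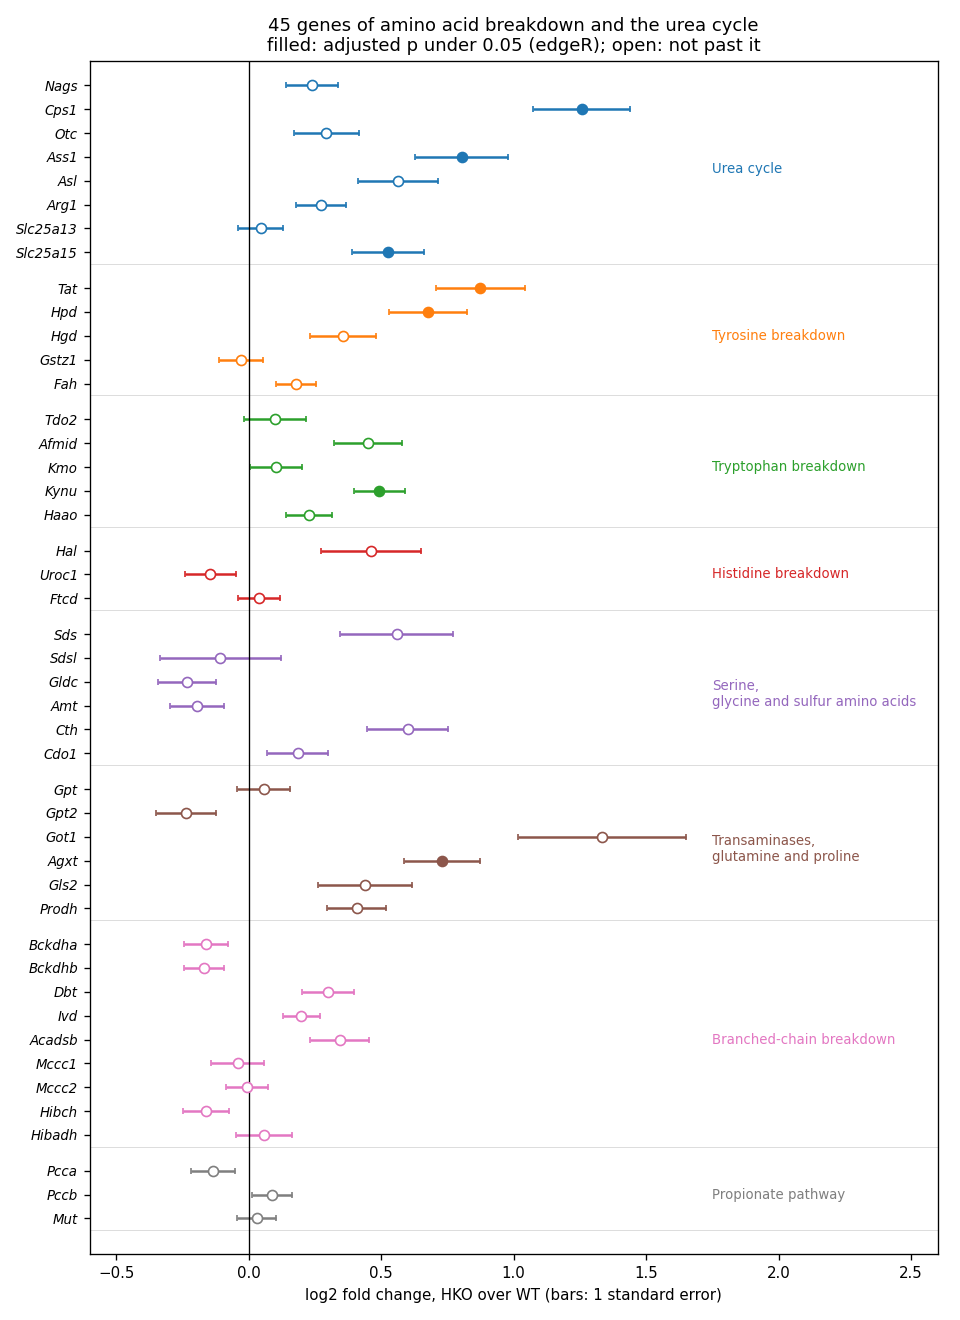
The log2 fold change of HKO over WT livers (x axis) for each of the 45 genes (y axis), grouped by pathway, with bars of 1 standard error; filled points passed an adjusted p under 0.05 in edgeR. All 7 filled points lie to the right of 0, all 8 urea cycle genes lie to the right of it too, and the branched-chain and propionate genes lie around it.

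The urea cycle held the gene with the clearest difference. Cps1, carbamoyl phosphate synthetase, fixes ammonia in mitochondria and sets the pace of the cycle (chromosome 1, 67123027 to 67231268 on GRCm38). It was measured at 1820.1, 1946, 2919 and 3044 CPM in WT replicates 1 to 4 and at 6819, 5427, 4883 and 6127 CPM in HKO replicates 1 to 4. The lowest HKO liver was thus well above the highest WT liver. The mean was 2432 ± 638 CPM for WT and 5814 ± 841 CPM for HKO (SD, n = 4 each), a 2.39-fold difference (log2 1.26, SE 0.18, adjusted p = 0.00433). With any liver left out the log2 fold change stayed between 1.14 and 1.39.

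Ass1, argininosuccinate synthetase, joins citrulline and aspartate and so brings in the second nitrogen atom of urea (chromosome 2, 31470270 to 31520671). Its levels were 496, 456, 547 and 722 CPM in WT livers and 1076, 974, 701 and 1128 CPM in HKO livers, where HKO replicate 3 lay just below WT replicate 4. The 1.75-fold difference passed the test (log2 0.80, SE 0.17, adjusted p = 0.0280), and the call was lost on leaving out any liver other than HKO replicate 3 or WT replicate 4, at an adjusted p of 0.0590 to 0.0870. Ass1 overlaps the listed gene Gm5424 and had fractional counts in 5 livers, so part of its reads could belong to that gene. Slc25a15, the mitochondrial carrier that exchanges ornithine for citrulline, was measured at 325, 319, 413 and 427 CPM in WT and 642, 484, 446 and 565 CPM in HKO livers. Its groups did not overlap, and the 1.44-fold difference was close to the threshold (log2 0.53, SE 0.14, adjusted p = 0.0480). Total count scaling ended that call (adjusted p = 0.102), as did leaving out any liver but HKO replicate 3 or WT replicate 4 (0.0599 to 0.151).

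The other 5 urea cycle genes also had higher estimates in HKO livers but did not pass in edgeR. Asl, argininosuccinate lyase, whose 3'UTR holds a full miR-33 match, was at 125, 154, 158 and 164 CPM in WT and 279, 235, 163 and 211 CPM in HKO livers, with HKO replicate 3 inside the WT range (log2 0.56, SE 0.15, adjusted p = 0.0601). Its adjusted p was 0.0116 without HKO replicate 3, and 0.00672 in DESeq2 with all livers. Arg1, the arginase that releases urea, was at 1527, 1328, 1391 and 1569.7 CPM in WT and 1914, 1750.2, 1603 and 1765 CPM in HKO livers, without overlap but by a small margin (log2 0.27, SE 0.09, adjusted p = 0.130). In DESeq2 the adjusted p of Arg1 was 0.0283. Otc, which makes citrulline, stood at a log2 fold change of 0.29 (adjusted p = 0.216), and its WT range was set by replicate 4, at 1034 CPM, where WT replicates 1 to 3 lay at 738 to 750.2 CPM; without that liver its adjusted p was 0.0326. Nags, whose product N-acetylglutamate switches on the Cps1 enzyme, stood at a log2 fold change of 0.24 (adjusted p = 0.195). Slc25a13, the carrier that supplies aspartate to the cytosol, stood at 0.05 (adjusted p = 0.832), an estimate that turned to -0.04 under total count scaling. Summed over the 8 genes, the cycle took 5303 to 7309 CPM in WT and 9185 to 11992 CPM in HKO livers, and Cps1 had the widest gap of the 45 genes on the CPM scale.

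**Figure D2:**
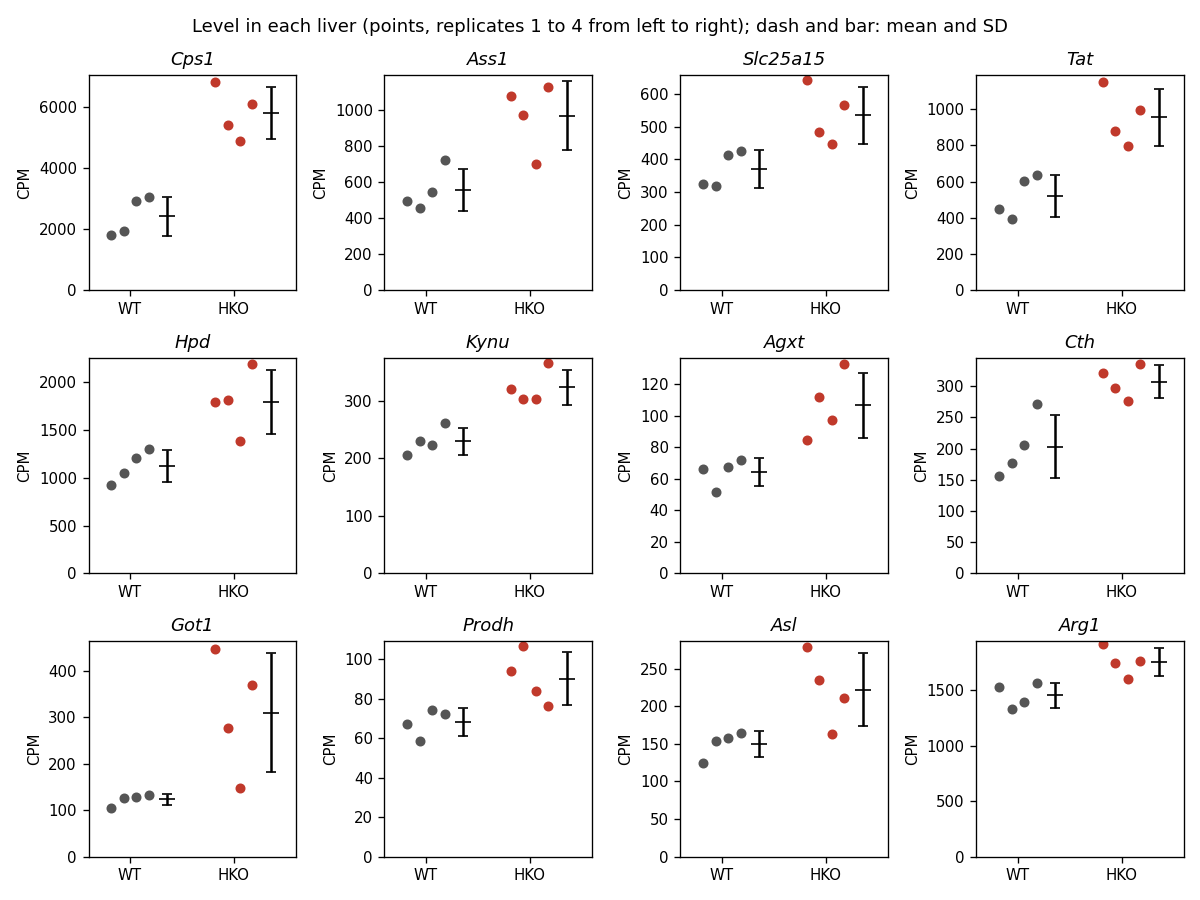
Level in CPM (y axis, from 0) of 12 genes in each liver, WT in grey and HKO in red, replicates 1 to 4 from left to right within a genotype, with the mean as a dash and the SD as a bar. The groups do not overlap for Cps1, Slc25a15, Tat, Hpd, Kynu, Agxt, Cth, Got1, Prodh and Arg1, while HKO replicate 3 falls inside the WT range for Ass1 and Asl.

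Tyrosine breakdown rose at its first steps. Tat, tyrosine aminotransferase, opens the pathway and is a classic glucocorticoid- and fasting-responsive gene (chromosome 8, 109990436 to 109999805). It was measured at 450.2, 394, 603 and 635 CPM in WT livers and 1152, 878, 794 and 994 CPM in HKO livers. The genotypes did not overlap and differed 1.83-fold (log2 0.87, SE 0.17, adjusted p = 0.0165). The call was lost in 1 of the 8 fits that left out a liver, the one without WT replicate 1 (adjusted p = 0.0539). Hpd, the dioxygenase of the second step (chromosome 5, 123171807 to 123182724), was at 923, 1048, 1201 and 1305 CPM in WT and 1788, 1807, 1379 and 2188 CPM in HKO livers. The lowest HKO liver, replicate 3, was only slightly above the highest WT liver, and the difference was 1.60-fold (log2 0.68, SE 0.15, adjusted p = 0.0243). Without WT replicate 1 or 2 or HKO replicate 2 or 4 its adjusted p was 0.0512 to 0.0908.

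The later enzymes of the pathway did not pass. Hgd, homogentisate dioxygenase, stood at a log2 fold change of 0.36 (adjusted p = 0.133), Gstz1, maleylacetoacetate isomerase, which overlaps the listed genes Gm6566 and Pomt2, -0.03 (adjusted p = 0.894), and Fah, the hydrolase of the last step, 0.18 (adjusted p = 0.220). The Fah groups did not overlap all the same, at 293 to 338 CPM in WT and 349 to 369 CPM in HKO livers.

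In tryptophan breakdown all 5 genes had higher estimates, as had 6402 of the 12395 tested genes. Of the 5 genes 1 passed, beside 5.03% of all tested genes. Tdo2, the dioxygenase that opens the kynurenine pathway, was at 1963, 1945, 2309 and 2236 CPM in WT and 2526, 1955, 2038 and 2533 CPM in HKO livers, where the groups overlapped and no difference was detected (log2 0.10, SE 0.12, adjusted p = 0.702). Kynu, kynureninase, cleaves kynurenine and 3-hydroxykynurenine (chromosome 2, 43555325 to 43683049). It was at 205, 229.8, 223 and 261 CPM in WT and 321, 304, 303 and 367 CPM in HKO livers, a 1.41-fold difference without overlap (log2 0.49, SE 0.10, adjusted p = 0.0150). Leaving out WT replicate 1 or 2 raised its adjusted p to 0.0550 and 0.0578. Among the rest, Afmid, the formamidase of the second step, stood at a log2 fold change of 0.45 (adjusted p = 0.0731), which passed without HKO replicate 3 (0.0368) or WT replicate 4 (0.0211). In DESeq2 the adjusted p of Afmid was 0.0239. Afmid overlaps the listed gene Tk1. Kmo, kynurenine monooxygenase, and Haao, which opens the ring of 3-hydroxyanthranilate, were at 0.10 (adjusted p = 0.620) and 0.23 (adjusted p = 0.169).

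Beside the 45 genes, a list of 90 further amino acid genes was drawn up with earlier results of these data known, and a pair of tryptophan genes on it passed. Acmsd, which diverts the kynurenine pathway from NAD synthesis to complete oxidation, was at 7.76, 8.93, 10.5 and 12.02 CPM in WT livers and at 67.9, 34.5, 29.1 and 58.3 CPM in HKO livers. Every HKO liver was far above the WT range, and the 4.83-fold difference was larger than that of any of the 45 genes (log2 2.27, SE 0.30, adjusted p = 0.00723). The call held with each liver left out, at a log2 fold change of 2.05 to 2.44. Acmsd overlaps the listed genes 2900009J06Rik and Gm35993. Kyat1, a kynurenine aminotransferase, was at 27.6 to 30.1 CPM in WT and 33.9 to 40.7 CPM in HKO livers (log2 0.39, SE 0.08, adjusted p = 0.0213), and lost the call under total count scaling (0.0699) and without WT replicate 1, WT replicate 2 or HKO replicate 4 (0.0610 to 0.0704).

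No gene of histidine breakdown passed the test. Hal, the ammonia lyase of the first step, was at 121, 154, 214 and 188 CPM in WT and 192, 222, 222 and 299 CPM in HKO livers, a spread in which 1 HKO liver fell below the highest WT liver (log2 0.46, SE 0.19, adjusted p = 0.218). Uroc1, urocanase, stood at a log2 fold change of -0.14 (adjusted p = 0.459). Ftcd, which passes the last carbon unit to folate, was at 0.04 (adjusted p = 0.851).

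Among the enzymes of serine, glycine and the sulfur amino acids, 3 had higher and 3 lower estimates and none passed. Cth, cystathionine gamma-lyase, which makes cysteine, came closest: it was at 157, 177, 205 and 272 CPM in WT and 322, 297, 276 and 336 CPM in HKO livers, without overlap and with WT replicate 4 nearly at the level of HKO replicate 3. The 1.52-fold difference had an adjusted p of 0.0510 (log2 0.60, SE 0.15), and 0.00404 without WT replicate 4. It also passed with all livers in DESeq2 (0.00334), limma-voom (0.0422), RLE scaling (0.0488), at least 10 counts in every liver (0.0489) and the legacy quasi-likelihood method (0.0484). Sds, serine dehydratase, a gene induced by glucagon, was at 35.4, 52.4, 49.2 and 56.3 CPM in WT and 80.0, 70.3, 45.7 and 89.0 CPM in HKO livers. Again HKO replicate 3 lay inside the WT range (log2 0.56, SE 0.21, adjusted p = 0.196), and without it the adjusted p was 0.0269. Sds overlaps the listed gene Plbd2.

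Cdo1, cysteine dioxygenase, was at 2132, 1920.3, 1731 and 2259 CPM in WT and 2118, 2056, 2366 and 2603 CPM in HKO livers, ranges that overlap (log2 0.19, SE 0.11, adjusted p = 0.414). Gldc, the decarboxylase of the glycine cleavage system, was at 104, 109, 130.3 and 109 CPM in WT and 88.3, 81.4, 105 and 110.1 CPM in HKO livers, the lower estimate not passing (log2 -0.23, SE 0.11, adjusted p = 0.268). Amt, the aminomethyltransferase of the same system, was at -0.20 (adjusted p = 0.322). Sdsl, a homolog of serine dehydratase, was at -0.11 (adjusted p = 0.854).

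The transaminases did not move as a group. Got1, the cytosolic aspartate aminotransferase, had the largest estimated fold of the 45 genes and also the largest standard error. It was at 105, 125, 129 and 134 CPM in WT livers and at 447, 277, 147 and 369.9 CPM in HKO livers, so that HKO replicate 3 sat near the WT livers and the other HKO livers far above them. The difference was 2.52-fold with an adjusted p of 0.0628 (log2 1.33, SE 0.32), and without HKO replicate 3 the adjusted p was 0.000847. DESeq2 gave 0.00209 and the non-robust quasi-likelihood fit 0.0212. Agxt, the alanine-glyoxylate aminotransferase of peroxisomes, passed (chromosome 1, 93135240 to 93145422): it was at 66.1, 51.4, 67.5 and 71.9 CPM in WT and 84.6, 112, 97.4 and 132 CPM in HKO livers. There was no overlap, and the difference was 1.66-fold (log2 0.73, SE 0.14, adjusted p = 0.0177), with an adjusted p of 0.0550 without WT replicate 1 and 0.0541 without WT replicate 2.

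Gpt, the cytosolic alanine aminotransferase, was at 93.1, 97.8, 110.2 and 101 CPM in WT and 112, 121, 94.4 and 91.0 CPM in HKO livers, with no difference detected (log2 0.06, SE 0.10, adjusted p = 0.823). Its mitochondrial counterpart Gpt2 had a lower estimate (log2 -0.24, adjusted p = 0.276). Gls2, the liver glutaminase, which feeds ammonia to the urea cycle, was at 119, 145, 185 and 205 CPM in WT and 210.3, 250.4, 175 and 252 CPM in HKO livers, where replicate 3 was again the lowest HKO liver (log2 0.44, SE 0.18, adjusted p = 0.215). Gls2 overlaps the listed gene Spryd4. Prodh, proline dehydrogenase, was at 67.0, 58.6, 74.2 and 72.5 CPM in WT and 94.2, 107, 83.9 and 76.2 CPM in HKO livers, separated by a narrow gap (log2 0.41, SE 0.11, adjusted p = 0.0628). Its adjusted p was 0.0427 without HKO replicate 4, and 0.021 in DESeq2 with all livers.

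No gene of the branched-chain pathway, or of the propionate pathway that follows it, passed the test. Of the 9 branched-chain genes 4 had higher and 5 lower estimates, between -0.17 and 0.34 on the log2 scale, and the lowest adjusted p was 0.102. Bckdha, a subunit of the branched-chain ketoacid dehydrogenase, was at 85.5, 96.9, 76.4 and 88.3 CPM in WT and 75.8, 81.7, 76.2 and 76.6 CPM in HKO livers (log2 -0.16, SE 0.08, adjusted p = 0.316). Bckdhb, its partner, was at -0.17 (adjusted p = 0.251). Dbt, the transacylase core of the same complex, had an estimate in the other direction, at 148, 146, 173 and 193 CPM in WT and 216, 200.0, 193 and 203 CPM in HKO livers, with WT replicate 4 level with HKO replicate 3 (log2 0.30, SE 0.10, adjusted p = 0.108, and 0.0332 without WT replicate 4). The subunits of this complex therefore had estimates on opposite sides of 0.

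Of the dehydrogenases of the next step, Ivd, which acts on the leucine product, was at 102 to 114 CPM in WT and 119 to 130.6 CPM in HKO livers without overlap (log2 0.20, adjusted p = 0.143). Acadsb, which acts on the isoleucine product and holds a full miR-33 match, stood at a log2 fold change of 0.34 (adjusted p = 0.102, and 0.0248 without WT replicate 4). In DESeq2 with all livers its adjusted p was 0.0476. The subunits of methylcrotonyl-CoA carboxylase, Mccc1 at -0.04 and Mccc2 at -0.01, and the valine enzymes Hibch at -0.16 and Hibadh at 0.06 had adjusted p-values of 0.345 to 0.978. Mccc1 overlaps the listed gene Mccc1os. Pcca, a subunit of propionyl-CoA carboxylase, was at 77.1, 83.5, 77.1 and 81.5 CPM in WT and 79.7, 77.4, 68.1 and 65.7 CPM in HKO livers (log2 -0.13, SE 0.08, adjusted p = 0.413). Its partner Pccb stood at 0.09 (adjusted p = 0.574), and Mut, methylmalonyl-CoA mutase, at 0.03 (adjusted p = 0.873).

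Of the further genes, an enzyme at the end of isoleucine breakdown that is shared with ketone metabolism fell. Acat1, mitochondrial acetoacetyl-CoA thiolase, was at 589, 621, 513 and 586 CPM in WT and 394, 458, 415 and 410.2 CPM in HKO livers, without overlap (log2 -0.46, SE 0.09, adjusted p = 0.0133; 0.0578 without WT replicate 2). Bckdk, the kinase that switches off the branched-chain dehydrogenase, was low in all livers, at 6.89 to 7.32 CPM in WT and 4.63 to 8.42 CPM in HKO livers (adjusted p = 0.567).

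**Figure D3:**
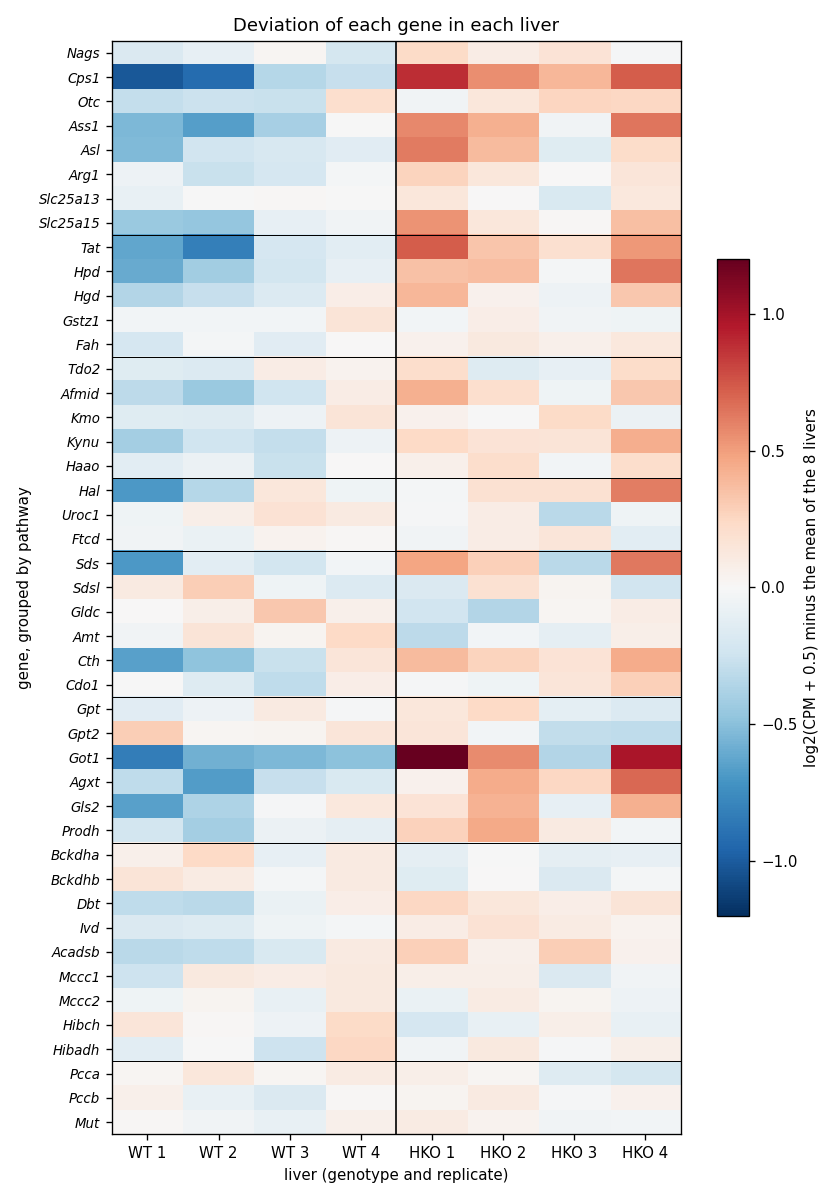
Deviation of each of the 45 genes (rows, grouped by pathway) in each liver (columns) from the mean of the 8 livers, on the log2(CPM + 0.5) scale, red above and blue below the mean. WT replicates 1 and 2 are the bluest columns for Cps1, Ass1, Tat, Hpd, Cth and Got1, and HKO replicate 3 is the lowest of the HKO columns for these genes.

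The livers of a genotype did not behave alike. Among the 24 genes that were higher at an unadjusted p under 0.05, HKO replicate 3 was the lowest HKO liver for 16 and WT replicate 4 the highest WT liver for 21, while WT replicate 1 was the lowest WT liver for 14. Summed over the 45 genes, the levels were 16925, 16838, 18779 and 20912 CPM in WT replicates 1 to 4 and 27088, 24261, 22500.1 and 26972 CPM in HKO replicates 1 to 4. The share of all counts taken by these genes was 1.68% to 2.07% in WT and 2.13% to 2.65% in HKO livers, ranges without overlap, though HKO replicate 3 and WT replicate 4 came close. This is a sum in which the abundant genes weigh most. Per kilobase of the longest coding transcript, Cdo1, Arg1, Hpd, Tdo2 and Gstz1 had the highest WT medians of the 45 genes, at 1270.3, 988, 801, 612 and 471 CPM per kilobase. Cps1 followed with 438 in WT and stood at 1040.0 CPM per kilobase in HKO livers, moving from rank 6 to rank 4.

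Grouped by where the enzyme works, a grouping made after the values were seen, the cytosolic and peroxisomal enzymes had mostly higher estimates and the mitochondrial ones were mixed. Of 22 cytosolic or peroxisomal genes 19 had higher estimates and 5 were called, with a median log2 fold change of 0.40. Of 23 mitochondrial genes 14 had higher estimates and 2, Cps1 and Slc25a15, were called, with a median of 0.06. Among all tested genes 5.03% were called. The mitochondrial group holds the branched-chain genes (4 higher, 5 lower) and the propionate genes (2 higher, 1 lower), so compartment and pathway are not separate here. The difference between the mitochondrial group and the cytosolic or peroxisomal group was not tested.

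The 90 further amino acid genes comprised enzymes, transporters and regulators, of which 86 were tested and 12 (14%) passed, 8 higher and 4 lower. Among all tested genes 5.03% passed, 1.66% as higher and 3.37% as lower. Of 59 tested enzymes 5 (8.47%) passed, 3 higher and 2 lower, among them Acmsd, Kyat1 and Acat1. The enzymes that handle ammonia beside the urea cycle did not pass. Glul, the glutamine synthetase of pericentral hepatocytes, was at 1433 to 1824 CPM in WT and 1340.1 to 1736 CPM in HKO livers (log2 -0.07, adjusted p = 0.818). Glud1, glutamate dehydrogenase, was at 1137 to 1409 CPM in WT and 1228 to 1503 CPM in HKO livers (log2 0.10, adjusted p = 0.627). Oat, ornithine aminotransferase, varied widely, from 857 to 1407 CPM in WT and from 909 to 2076 CPM in HKO livers (log2 0.42, SE 0.25, adjusted p = 0.410).

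Of 10 amino acid transporters 9 had higher estimates and 3 (30%) rose, beside 1.66% of all tested genes. Slc38a2, a sodium-coupled carrier of small neutral amino acids, was at 110.1, 107, 109 and 130.5 CPM in WT and 195, 168, 193 and 163 CPM in HKO livers, a 1.58-fold difference without overlap (log2 0.66, SE 0.09, adjusted p = 0.00301). Slc16a10, a carrier of aromatic amino acids, was at 119, 121, 138 and 154 CPM in WT and 198, 226, 173 and 228 CPM in HKO livers (log2 0.63, SE 0.11, adjusted p = 0.00957). Slc43a1, a carrier of large neutral amino acids, was much lower in level, at 4.13, 3.56, 5.51 and 4.14 CPM in WT and 10.2, 11.9, 9.79 and 7.40 CPM in HKO livers (log2 1.17, SE 0.18, adjusted p = 0.00507). For all 3 transporters the HKO livers lay above the WT livers, and the call held in each of the 8 fits that left out a liver. Slc43a1 overlaps the listed gene D930003E18Rik.

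Among 17 regulators 2 rose and 2 fell, together 23.5%, beside 5.03% of all tested genes. Klf15, a transcription factor of amino acid breakdown, was at 87.0, 85.4, 103 and 119 CPM in WT and 147, 132, 121 and 146 CPM in HKO livers, with WT replicate 4 close below HKO replicate 3 (log2 0.47, SE 0.11, adjusted p = 0.0373). Hnf4a, the hepatocyte nuclear receptor, was at 441, 438, 471 and 434 CPM in WT and 633, 559, 499 and 593 CPM in HKO livers (log2 0.36, SE 0.09, adjusted p = 0.0406). It overlaps the listed gene Hnf4aos and had fractional counts in all 8 livers. Ppara, a nuclear receptor of the fasting response, was at 661, 682, 665 and 675 CPM in WT and 563, 564, 522 and 491 CPM in HKO livers (log2 -0.33, SE 0.08, adjusted p = 0.0358). Sirt5, the mitochondrial deacylase that acts on the CPS1 protein, was at 13.5, 13.0, 11.8 and 13.9 CPM in WT and 6.94, 10.6, 7.71 and 8.42 CPM in HKO livers (log2 -0.63, SE 0.14, adjusted p = 0.0264).

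None of these 4 regulators had overlapping groups, and their calls were less firm than their separation. Klf15 and Sirt5 were called in 2 of the 8 fits that left out a liver, with adjusted p-values up to 0.125 for Klf15 (without WT replicate 2) and 0.0840 for Sirt5 (without WT replicate 2). Hnf4a and Ppara were called in 1, with adjusted p-values up to 0.126 and 0.119, both without WT replicate 2. Total count scaling ended the calls of Klf15 (0.0826) and Hnf4a (0.151). The glucagon receptor Gcgr was at 64.1 to 71.9 CPM in WT and 62.2 to 74.9 CPM in HKO livers, with an estimate near 0 (log2 0.0019, adjusted p = 0.996) that was -0.09 under total count scaling. Nr3c1, the glucocorticoid receptor, was at 152 to 163 CPM in WT and 155.02 to 179.1 CPM in HKO livers (log2 0.12, adjusted p = 0.400).

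**Figure D4:**
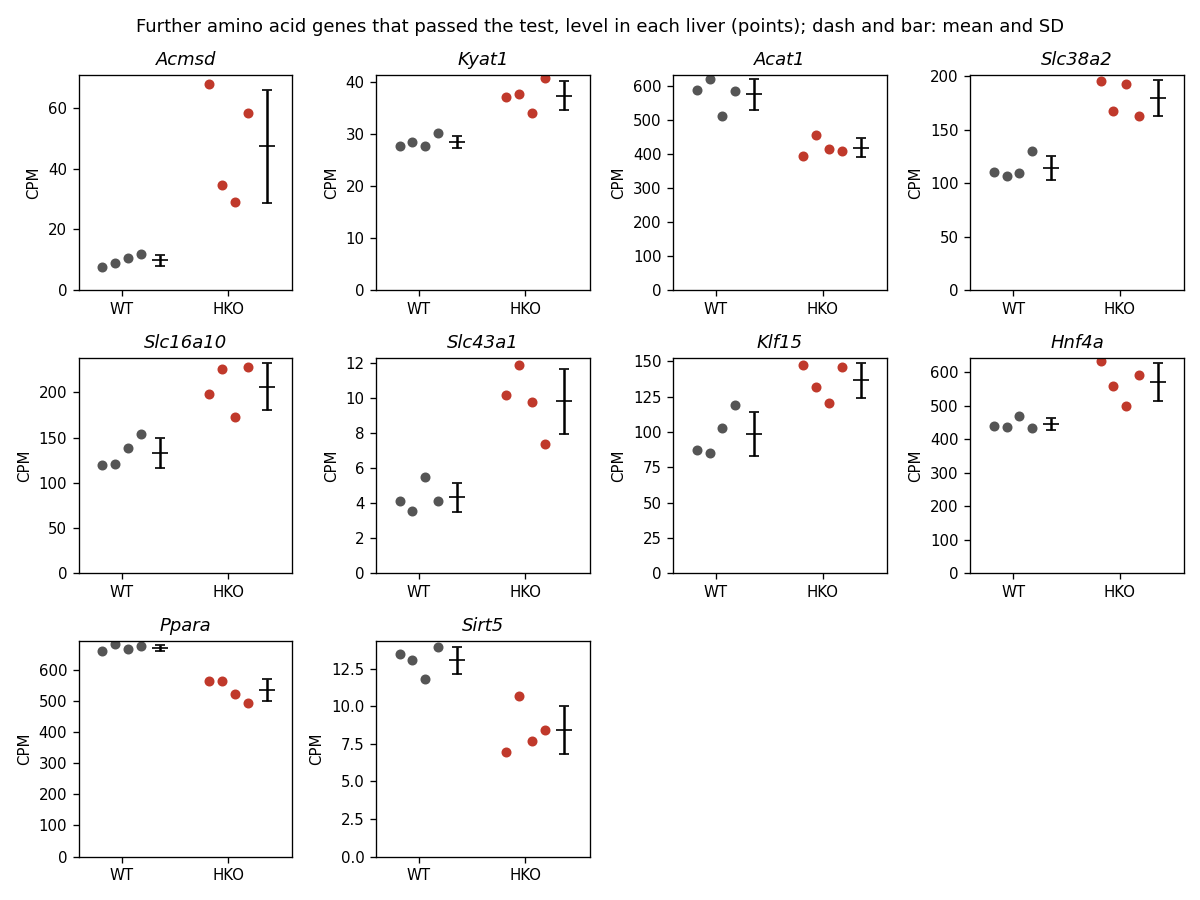
Level in CPM (y axis, from 0) in each liver of the further amino acid genes named here with an adjusted p under 0.05 in edgeR, WT in grey and HKO in red, with the mean as a dash and the SD as a bar. Acmsd shows the largest fold, with 7.76 to 12.02 CPM in WT and 29.1 to 67.9 CPM in HKO livers, and Acat1, Ppara and Sirt5 are the genes whose HKO livers lie below the WT livers.

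Of the markers of the hepatocyte zones, 2 of 8 periportal (25%) and 2 of 10 pericentral ones (20%) passed, beside 5.03% of all tested genes. The 8 periportal markers summed to 4136 to 4655 CPM in WT and 5175 to 6288 CPM in HKO livers, and the 10 pericentral markers to 12908 to 14647 CPM in WT and 16560.1 to 18595 CPM in HKO livers, so both sums were higher in every HKO liver. Most of the pericentral sum was Cyp2e1, at 9649 to 10754 CPM in WT and 12034 to 14233 CPM in HKO livers, which did not pass (log2 0.34, adjusted p = 0.1004). Of the periportal markers Pigr rose (log2 0.64, adjusted p = 0.0140) and Hsd17b13 fell (log2 -0.77, adjusted p = 0.00914). Of the pericentral markers Gulo (log2 0.67, adjusted p = 0.00235) and Cyp1a2 (log2 1.79, adjusted p = 0.00491) rose. Marker sums of macrophages were 58.1 to 154 CPM in WT and 44.1 to 144 CPM in HKO livers, and those of endothelial cells were 49.7 to 166 and 86.4 to 188 CPM. Stellate cell markers summed to 321 to 432 CPM in WT and 270.2 to 393 CPM in HKO livers, and of these Col1a1 fell (log2 -2.81, adjusted p = 0.00723). Cholangiocyte markers stood at 107.7 CPM in HKO replicate 2, beside 30.7 to 53.1 CPM in the other 7 livers. Lymphocyte markers were near the floor, at 0.743 to 2.88 CPM in WT and 3.32 to 4.92 CPM in HKO livers, and 1 of 6 was tested. The 2 neutrophil markers summed to 0.413 to 2.56 CPM in WT and 1.07 to 6.32 CPM in HKO livers. None of the 7 macrophage, 5 endothelial, 3 tested cholangiocyte, 2 neutrophil and 1 tested lymphocyte markers passed, beside 1 of 5 stellate cell and 1 of 6 hepatocyte markers, the latter being Serpina1a (log2 0.61, adjusted p = 0.0244). None of these markers was under the floor in every liver. The part of zones and of other cell types in the differences between genotypes was not tested.

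The promoters of 33 of the 45 genes were found in RefSeq (250 bases before to 50 after the start, GRCm38), and those of 3 genes that rose are printed to show the bases ahead of their starts, with motif matches in capitals:
Ass1, chr2:31470020-31470319, plus strand: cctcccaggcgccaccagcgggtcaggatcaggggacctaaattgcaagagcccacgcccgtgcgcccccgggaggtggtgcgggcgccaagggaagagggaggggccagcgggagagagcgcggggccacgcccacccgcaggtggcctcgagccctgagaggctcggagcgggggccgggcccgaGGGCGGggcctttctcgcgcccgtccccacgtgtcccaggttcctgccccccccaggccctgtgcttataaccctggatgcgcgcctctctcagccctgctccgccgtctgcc
Hpd, chr5:123182674-123182973, minus strand: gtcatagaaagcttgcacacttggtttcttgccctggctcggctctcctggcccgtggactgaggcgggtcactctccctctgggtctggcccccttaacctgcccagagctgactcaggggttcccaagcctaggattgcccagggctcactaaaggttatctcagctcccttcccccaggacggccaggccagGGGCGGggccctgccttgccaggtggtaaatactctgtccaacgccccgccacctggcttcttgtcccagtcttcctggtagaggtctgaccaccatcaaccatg
Agxt, chr1:93134990-93135289, plus strand: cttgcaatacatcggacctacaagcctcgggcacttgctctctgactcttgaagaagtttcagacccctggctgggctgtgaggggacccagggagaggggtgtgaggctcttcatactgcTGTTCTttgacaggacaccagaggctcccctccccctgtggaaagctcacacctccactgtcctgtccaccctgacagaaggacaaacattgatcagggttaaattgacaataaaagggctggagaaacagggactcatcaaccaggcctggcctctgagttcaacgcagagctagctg
Both strands were searched for 7 motifs, none of which contains another. The capitals mark the GC box GGGCGG in Ass1 and Hpd and, on the other strand in Agxt, AGAACA, a motif read by the glucocorticoid receptor. Of the other genes that rose, Slc25a15 held GC boxes and Tat held none of the 7 motifs, while Cps1 and Kynu were not among the 33. AGAACA was also in the promoters of Kmo, Bckdhb, Pccb and Haao, none of which passed the edgeR test. The GC box was in 45.5% of the 33 promoters and in 62.7% of the 9921 promoters of tested genes, and AGAACA in 15.2% and 12.8%. TGACG, the core read by CREB, was in 15.2% of the 33 and 31.8% of all, the FOXA motif TGTTTAC in 3.03% and 2.71%, and the C/EBP motif TTGCNNAA in 9.09% and 8.81%. The HNF4 motif CAAAGTNC was in 9.09% of the 33 and 4.14% of all, and TATAAA in 12.1% and 7.57%. The shares of the 33 rest on 1 to 15 promoters for each motif, and were not tested.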

How the data were processed

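RNA-Seq of whole liver from 4 WT and 4 HKO mice was analysed. The authors aligned reads with STAR and deposited estimated counts per gene, as Partek's expectation-maximization method gives them before normalization; versions and genome build are not given in the sources used here, and the listed coordinates match GRCm38. The labels name a small RNA kit as well as rRNA depletion, so the library type is uncertain, and no source says whether counting used strand. Of the deposited values 80.3% are whole.

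Counts were rounded and tested with edgeR 4.0.16 in R 4.3.3: TMM scaling, default expression filter (minimum count 10), robust quasi-likelihood fit without the legacy method, and Benjamini-Hochberg adjustment over 12395 genes, with a threshold of 0.05. The test behind the study's RNA-Seq is not given in the sources used here. A single-gene exact permutation test over the 70 allocations of 8 livers cannot go below 0.0286 and is not adjusted. Nothing says that livers were processed apart. The p-values weigh the difference between genotypes against the spread between these livers. They cannot separate the genotype from whatever the S numbers stand for. Tried as alternatives were limma-voom (limma 3.58.1), DESeq2 1.42.0, other scalings and filters, a non-robust fit, the replicate number as a block, an added fold of 1.5, each liver left out, and the legacy method, which was added after seeing the data.

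All 45 genes are accounted for; values per liver are given for those called, for those without overlap at an adjusted p under 0.1 and for the entry enzymes of each pathway, and further genes are named if called or if picked by role. The values of 2 further genes that this rule covers are not reported here. The members and lists were chosen with earlier results of these data known. The models were tested on simulated counts. Python 3.11.15, pandas 2.3.3 and matplotlib 3.10.9 made tables and plots.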

Additional observations from a re-analysis of the deposited data

Results flagged for a closer look

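In 126 groups of 4 livers, 1 genotype of 1 named gene each, 8 held a liver far from the others by Dixon's criterion; chance gives about 1 in 20, or 6.3. In WT replicate 4, Otc was at 1034 CPM beside 738 to 750.2 CPM in the other WT livers, Gstz1 at 891 CPM beside 778 to 781 CPM, and Slc38a2 at 130.5 CPM beside 107 to 110.1 CPM. HKO replicate 2 held Gstz1 at 842 CPM beside 769 to 780.5 CPM and Bckdha at 81.7 CPM beside 75.8 to 76.6 CPM. WT replicate 3 held Hnf4a at 471 CPM beside 434 to 441 CPM and Nr3c1 at 163 CPM beside 152 to 154 CPM. Mccc1 was low in WT replicate 1, at 45.3 CPM beside 57.4 to 58.5 CPM.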

How the results depend on the processing

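The edgeR fit called 7 of the 45 genes, 12 of the 86 tested further amino acid genes and 624 of all genes. DESeq2 called 14, 20 and 1014. Requiring a fold above 1.5 as well left 5, 7 and 367. Leaving out each liver gave 1 to 12, 5 to 15 and 212 to 597 calls. Over these 8 fits the median log2 fold change of the 45 genes was 0.18 to 0.23. It was 0.20 with TMM and 0.11 under total count scaling, beside 0.009 and -0.08 for all tested genes. Cps1, Ass1, Tat, Hpd, Kynu and Agxt passed in all 10 other fits of the 8 livers. Slc25a15 failed in 3 of these: the non-robust fit (adjusted p = 0.0566), total count scaling (0.102) and the replicate block.

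Same-numbered livers did not deviate together (correlations -0.148 to 0.012), so the numbers were not read as pairs. With the replicate block 456 of all genes, 7 of the 45 and 9 of the further genes were called; Cth was gained (adjusted p = 0.0383), and Slc25a15 (0.0907), Klf15 (0.0554), Hnf4a (0.104) and Ppara (0.0829) were lost.

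Estimates near 0 changed sign. Under total count scaling these were Slc25a13 (-0.0435), Ftcd (-0.05), Gpt (-0.0302), Hibadh (-0.025), Mut (-0.0546) and Gcgr (-0.0902), and with at least 10 counts in every liver Gcgr (-0.0037). Leaving out a liver gave Gstz1 -0.0589 to 0.0237, Ftcd -0.005 to 0.0845, Sdsl -0.20 to 0.0048, Gpt -0.019 to 0.12, Mccc1 -0.12 to 0.0083, Mccc2 -0.0401 to 0.035, Hibadh -0.0095 to 0.16, Glul -0.13 to 0.0056 and Gcgr -0.0467 to 0.044. The median log2 fold change of all tested genes was 0.009 with TMM and -0.08 under total count scaling. The cause of the sign changes was not tested. All 45 genes were above the floor in every liver; Sdsl had the fewest reads, 21 in its lowest liver, so counting error weighs most there.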

Other observations

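Some further amino acid genes were separated between the genotypes without passing the test in edgeR; they were chosen after their values were seen. Cbs, which forms cystathionine in the step before Cth, was at 151, 182, 206 and 222 CPM in WT replicates 1 to 4 and at 303, 244, 229 and 301 CPM in HKO replicates 1 to 4 (log2 0.50, SE 0.13, adjusted p = 0.0517). Aass, which opens lysine breakdown, was at 270.3, 327, 333 and 358 CPM in WT and at 559, 408, 379.9 and 431 CPM in HKO livers (log2 0.46, SE 0.13, adjusted p = 0.0595). Csad, which makes the precursor of taurine from the product of Cdo1, lay the other way: it was at 64.1, 72.1, 60.7 and 94.4 CPM in WT and 44.0, 15.0, 42.6 and 20.3 CPM in HKO livers (log2 -1.25, SE 0.38, adjusted p = 0.127). No liver of either genotype overlapped the other genotype for these 3 genes. Csad overlaps the listed gene Zfp740, and it and Cbs had fractional counts in all 8 livers.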
